A study of Lachancea kluyveri with 9 samples.

Results

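Gene models with several coding parts were taken from the gene annotation behind a count table of the budding yeast Lachancea kluyveri. A model was a member when its coding sequence was listed as 2 or more separate parts. Members had to lie more than 30000 bp from either end of their chromosome, as judged from its first base and the end of its last model. Models starting within the first 1000000 bp of chromosome C were also left out. Of 712 such models in the table of 5189, 604 were members, 45 were left out near chromosome ends and 63 on chromosome C. The same position limits left 4561 models in all, of which 13.2% were members and 3957 had a single coding part. Poly(A) RNA was sequenced from a cells (strain yLB76), alpha cells (strain yLB77) and a/alpha cells (strain FDy22), with 3 libraries of each. All 3 strains were labelled as wild type and prototroph, and cultures were grown in YPED medium at 30 °C to an optical density between 0.5 and 1.0. Since 1 strain stood for each cell type, strain and cell type cannot be told apart.

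The gap between coding parts of a gene model is read by gene finders as an intron, the stretch that the spliceosome cuts out of the transcript before translation. Budding yeasts have lost most of their introns. In Saccharomyces cerevisiae the remaining ones are concentrated in genes of ribosomal proteins, which are among the most abundant transcripts of a growing cell, and they usually lie close to the start of the coding sequence. The a and alpha cells are the mating types of haploid yeast, and a/alpha cells carry both mating-type alleles. In S. cerevisiae a dimer of mating-type proteins represses haploid-specific genes in a/alpha cells.

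The files pair no gene names with the models, so no member could be assigned a function and the labelled cell types could not be checked against mating-type genes. Members are therefore given by chromosome, start, end and strand as deposited. Their coordinates follow a build not given in the sources used here. Library totals ran from 743244 counts in a/alpha replicate 1 to 10776548 counts in a/alpha replicate 2. The other libraries held 6379488 counts or more. Levels are given as CPM, which are counts scaled to a common library total, with TMM factors for library composition. Per total count, 3 reads make 4.04 CPM in a/alpha replicate 1 and at most 0.470 CPM elsewhere, a limit for counting error only. Replicates are biological, per the column headers.

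Most members had a simple layout. Of the 604 members, 534 had 2 coding parts, 64 had 3 and 6 had 4 or more. Together they held 682 gaps with a median of 181.5 bp, the shortest of 6 bp and the longest of 7267 bp. Gap lengths varied widely. Gaps of 50 to 99 bp made up 33.9% of the total, and gaps of 300 to under 600 bp made up 24.2%. Lengths between these ranges were also common. Of the 216 gaps of 150 to under 400 bp, 93 were 300 bp or longer. Only 29 gaps were shorter than 40 bp and 39 were longer than 1000 bp. The first coding part, read in the direction of transcription, was 30 bp or less in 161 members, 31 to 150 bp in 147 and over 150 bp in 296. Gaps interrupted the reading frame after a whole codon in 40.5% of cases, after the first base of a codon in 31.1% and after the second in 28.4%. The gap itself was a multiple of 3 bp long in 40.2% of cases. That share was 31.3% where the first part was 30 bp or less, 33.5% at 31 to 150 bp and 48.0% over 150 bp. All 604 members had a summed coding length divisible by 3, as did all 3957 models with a single part. The layout is the annotation's own, and whether reads spanned each gap was not tested.

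Members reached higher levels than models with a single part, mostly at the upper end of the range. The level is the TMM-normalised CPM per kb of coding length, averaged over the 3 cell types. The median level was 48.9 CPM per kb in members and 35.4 in single-part models. The ratio of medians was 1.38. It was 1.21 when members were scaled by the whole span including gaps, and 1.23 among models of 400 bp or more. The 10th percentiles differed less, at 8.55 CPM per kb in members and 7.82 in single-part models. The 90th percentiles lay far apart, at 876 and 260 CPM per kb. Above 1000 CPM per kb lay 59 members (9.77%) and 105 single-part models (2.65%). Among models within the position limits, members were 8 of the 10 with the highest level, 30 of the top 50 and 117 of the top 500. A member carried no count in any library in 1 case, against 4 single-part models. These are RNA levels in bulk culture, where fewer transcribing cells and less RNA per cell cannot be told apart.

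**Figure D1:**
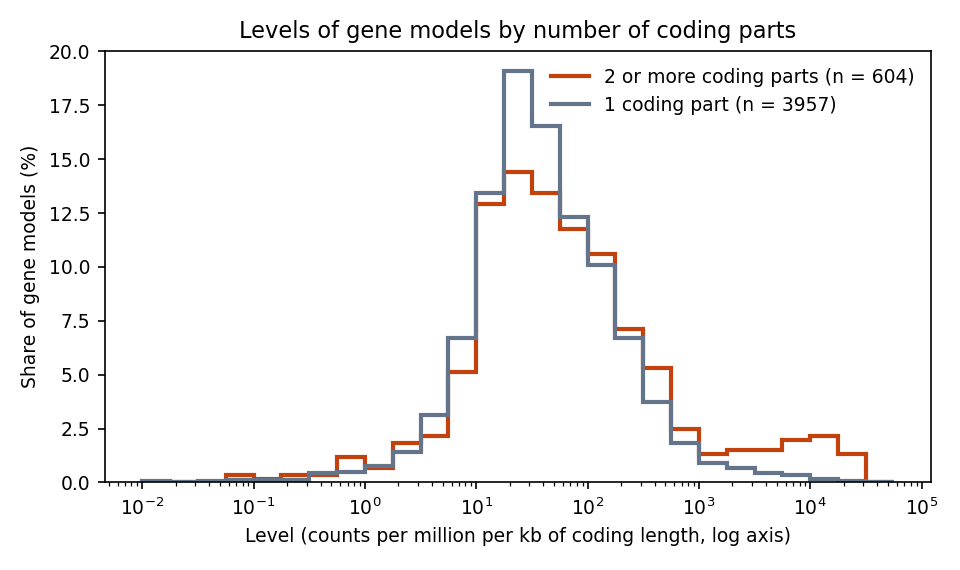
Distribution of gene model levels (x axis, CPM per kb of coding length, log axis) as the share of models (y axis, percent) for 604 models with 2 or more coding parts and 3957 with 1. Members have a shoulder above 1000 CPM per kb, where 9.77% of them lie against 2.65% of single-part models.

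Coding length moved with the level in both kinds of model. Members under 600 bp had a median of 323 CPM per kb, against 140 in single-part models of that length. From 600 to under 1500 bp the medians were 61.6 and 45.6 CPM per kb, and at 1500 bp or more 29.2 and 21.5. Members were thus higher in each length class, by the widest margin among short models. The difference was not tested.

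The most abundant members shared a layout. The 59 members above 1000 CPM per kb had a median first coding part of 34 bp, against 127.5 bp over all 604. Of their 65 gaps, 58.5% were 300 to under 600 bp long, against 24.2% of all gaps, and the median gap was 394 bp. Only 7.69% of their gaps were 50 to 99 bp long. Over all gap lengths together, a short first part went with a raised level. Members with a first part of 30 bp or less had a median of 76.6 CPM per kb, those with 31 to 150 bp had 84.9, and those with more than 150 bp had 35.2. Their median coding lengths were 816, 756 and 2245.5 bp, and first part and coding length were not separated. A first part of 30 bp or less with a longest gap of 400 bp or more was found in 27 members. Their median was 557 CPM per kb, and 12 of them exceeded 1000. With the same short first part and a longest gap of 40 to under 150 bp, 95 members had a median of 67.5 CPM per kb. At a first part of 31 to 150 bp, 28 members with a longest gap of 150 to under 400 bp had a median of 295 CPM per kb. There, 11 exceeded 1000. In 23 members with that first part and a longest gap of 400 bp or more, the median was 199 CPM per kb, and 10 exceeded 1000. Behind a first part of over 150 bp, the median level was 32.6 CPM per kb in 84 members with a longest gap of 400 bp or more, 40.5 in 135 with 150 to under 400 bp and 27.2 in 66 with 40 to under 150 bp. The share in the top level decile, above 260 CPM per kb, was 17.9%, 5.93% and 6.06% in these classes, so more of the long-gap members were abundant although their median was low.

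**Figure D2:**
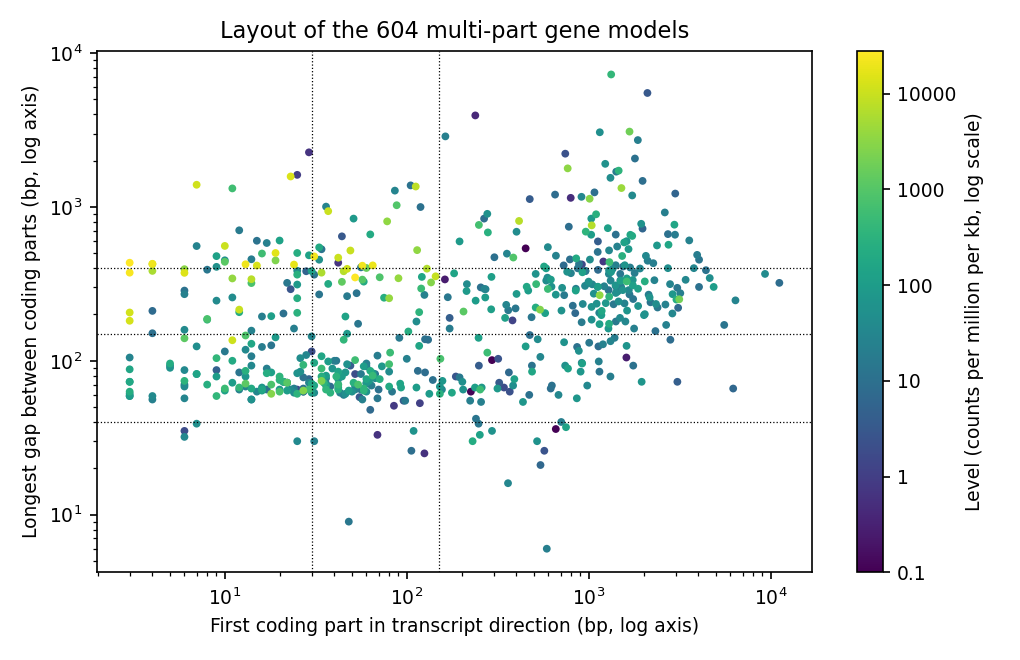
Each point is a member, placed by the length of its first coding part (x axis, bp, log axis) and its longest gap (y axis, bp, log axis) and coloured by level (CPM per kb, log scale). Dotted lines mark first parts of 30 and 150 bp and gaps of 40, 150 and 400 bp. The highest levels lie at short first parts with gaps near 400 bp, and the many short-gap members below them are lower.

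Other features of the annotation moved with the level too. The identifier of each model starts with the name of a program. Where that prefix is maker, the identifiers of members described here also hold augustus or snap further on. The prefix is therefore not always the only program named. The prefix maker was found on 202 members and on no single-part model, and those members had a median of 66.6 CPM per kb. The prefix augustus_masked was on 271 members with a median of 53.9, against 39.8 in single-part models of that prefix. The prefix snap_masked was on 105 members with a median of 22.6, against 23.4 in single-part models, so members were not higher there. Members whose gaps were never a multiple of 3 bp had a median of 66.8 CPM per kb (342 members), against 35.4 where every gap was (225 members). The 21 members with a longest gap under 40 bp had a median of 26.3 CPM per kb, and none of them exceeded 1000. By chromosome, the medians ran from 34.0 CPM per kb on chromosome H to 106 on chromosome F. Models on the opposite strand overlapped 22 members (3.64%) and 49 single-part models (1.24%). Such pairs were counted by strand, per the file headers.

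All 10 members of highest level had 2 coding parts, a first part of 3 to 65 bp and a gap of 348 to 502 bp. Their levels lay between 15992 and 27983 CPM per kb. The member of highest level, H:402215-402877 on the minus strand, had 4659, 6691 and 7395 CPM in a cells. It had 9741, 12746 and 17095 CPM in alpha cells, and 7713, 6343 and 6949 CPM in a/alpha cells. All alpha libraries lay above all others, while a and a/alpha libraries overlapped. The member H:618124-618946 on the plus strand had 3363, 3332 and 3820 CPM in a cells. Its alpha libraries held 6137, 6763 and 8241 CPM, and its a/alpha libraries 5220, 4772 and 4554 CPM. Here the groups stood apart in the order a, a/alpha and alpha.

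Each of these 10 members was lower in a than in alpha cells. Their log2 fold changes of a against alpha ran from -1.08 to -0.86, and adjusted p from 0.00168 to 0.0135 (quasi-likelihood test of edgeR, Benjamini-Hochberg adjusted over 5042 models). Against a/alpha cells, 2 of them passed in alpha cells, H:402215-402877 at 0.91 ± 0.23 (SE, adjusted p = 0.026) and G:471122-471903 at 0.79 ± 0.23 (adjusted p = 0.047). The call of H:402215-402877 was lost without alpha replicate 2 or 3 and without a/alpha replicate 2 or 3 (adjusted p of 0.0761 to 0.137). That of G:471122-471903 was lost with upper-quartile scaling and without a replicate 2 or 3, alpha replicate 2 or 3, or any a/alpha library (adjusted p of 0.0537 to 0.203). Against alpha cells, F:789880-790673 and G:1367756-1368512 no longer passed in a cells without alpha replicate 3. None of the 10 passed in a cells against a/alpha cells, where their log2 fold changes ran from -0.47 to -0.16. All 10 had their alpha libraries above their a libraries without overlap, which over all models tested was the case in 16.2%. It was more frequent at high level. Such separation was found in 165 of 396 single-part models of the top level decile, and in 46 of 59 members above 1000 CPM per kb. Libraries of 1 type also differed among themselves. Alpha replicate 3 was the highest alpha library for all 10 members, and a replicate 1 the lowest a library for 9.

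Reads of members took a smaller share of all counts, taken without TMM factors, in a cells than in alpha cells. The share was 29.0%, 32.5% and 32.7% in a libraries and 34.9%, 37.0% and 39.1% in alpha libraries. It was 34.5%, 33.4% and 34.1% in a/alpha libraries. No 2 groups overlapped, with a cells lowest and alpha cells highest. The a libraries averaged 31.4% ± 2.08, the alpha libraries 37.0% ± 2.11 and the a/alpha libraries 34.0% ± 0.562 (SD, n = 3 each). The difference lay in the top level decile, while the share of the members below it ran the opposite way. Shares are parts of a fixed total, so a larger share of some models leaves less for the rest. After TMM scaling, the median log2 fold change of a against alpha cells was -0.002 in the members below that decile. The decile limits were set on single-part models, and the top one began at 260 CPM per kb and held 119 members and 396 single-part models. Its members took 26.2% ± 2.06 of counts in the a group, 32.8% ± 2.28 in the alpha group and 29.4% ± 0.651 in the a/alpha group (SD, n = 3 each). The members below it took 5.18% ± 0.163 in the a group, 4.23% ± 0.172 in the alpha group and 4.59% ± 0.116 in the a/alpha group (SD, n = 3 each). The single-part models of the top decile differed less, at 34.8% ± 0.65, 35.3% ± 0.429 and 35.1% ± 0.541 in a, alpha and a/alpha cells (SD, n = 3 each).

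The comparison of a with alpha cells asks what differs between the haploid mating types. Of 590 members tested, 105 (17.8%) passed an adjusted p of 0.05, with 24 higher and 81 lower in a cells. Over all 5042 models tested, 17.9% passed, 8.05% higher and 9.90% lower, so the share of members called was that of the background. Over all models 406 were higher and 499 lower, and whether the split differed in members was not tested. The median log2 fold change was -0.10 in members, 0.04 in single-part models and 0.05 over all models. With upper-quartile scaling the split of members was 46 higher and 61 lower. That scaling moved the median of all models to 0.17 and of members to 0.02, so members stayed 0.15 below all models under either scaling. Without a replicate 2, alpha replicate 2 or alpha replicate 3, the count of members was 58, 55 and 46. For these counts and the upper-quartile split, the share of all models called is not given here.

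Of the 81 lower members, 51 lay in the top level decile and 30 below it. In the top decile, 53 of 119 members (44.5%) passed, 2 higher and 51 lower in a cells, with a median log2 fold change of -0.60. Among the 396 single-part models of that decile, 127 (32.1%) passed, 17 higher and 110 lower, with a median of -0.42. Above 1000 CPM per kb, 38 of 59 members passed, all of them lower in a cells, with a median of -0.71. Of 105 single-part models at that level, 47 passed, 43 of them lower, with a median of -0.56. After TMM scaling, both kinds of model therefore ran lower in a cells at high level. Whether members did so more than single-part models was not tested. Members also lay higher within the decile, with a median of 914 CPM per kb against 514. The TMM factors were 1.10 to 1.16 in a libraries and 0.81 to 0.96 in alpha libraries. Without these factors, the share of counts in single-part models of the decile differed little, at 34.8% in a and 35.3% in alpha cells. With upper-quartile scaling the medians of that decile were -0.47 in members and -0.30 in single-part models. Below the top decile, 52 of 471 members tested (11.0%) passed, 22 higher and 30 lower, against 598 of 3498 single-part models (17.1%). Their medians were -0.002 in members and 0.07 in single-part models, but these values pool deciles that differ. In members the median was 0.28 in decile 1, the lowest, and -0.23 in decile 9. In single-part models it was 0.36 in decile 1 and -0.22 in decile 9. Across all deciles, the members' median log2 fold change lay 0.06 below that of single-part models in the same decile, and 0.028 and 0.024 below it without a replicate 1 and without alpha replicate 3. The count of 51 lower members dropped to 33 and 30 when a replicates 1 and 2 were left out in turn, and to 26 and 22 when alpha replicates 2 and 3 were. Counts of single-part models in those fits are not given here.

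**Figure D3:**
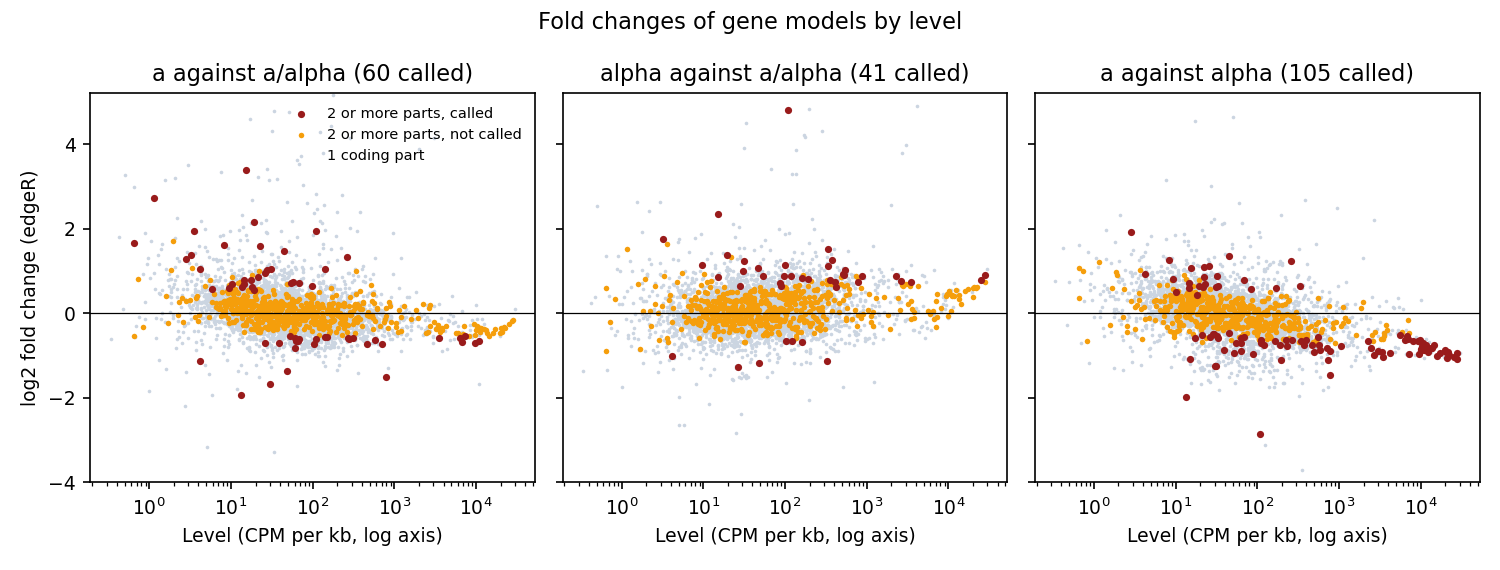
Log2 fold change (y axis) against level (x axis, CPM per kb, log axis) in the comparisons a against a/alpha, alpha against a/alpha and a against alpha, with members called at an adjusted p of 0.05 in dark red, other members in orange and single-part models in grey. The axis is limited to the range of members, so some single-part models lie beyond it. In the panel of a against alpha, the 38 members called above 1000 CPM per kb all lie below 0.

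The replicate numbers were taken to pair the a and alpha libraries, since their deviations moved together by number in these data. The labels give no such pairing. With the number as a block in the a and alpha libraries alone, 264 members passed, where 43.6% of all models did. In the top decile 92 of the 119 members were then lower in a cells. The matching count of single-part models in that fit is not given here. The median deviation of top-decile members from their mean over the 9 libraries was -0.55, -0.25 and -0.07 in the a libraries 1, 2 and 3. The alpha libraries of those numbers had 0.07, 0.34 and 0.58, and the a/alpha libraries 0.02, -0.10 and -0.03 (log2, pseudocount of 1 CPM). The spread within the a and alpha groups was wide. The a libraries lay below the alpha library of the same number by 0.61, 0.59 and 0.65. Pairs picked because their deviations moved together yield even differences. Neither that evenness nor the blocked count is therefore separate evidence. Of the 119 members, 110, 111 and 106 were lower in the a library than in the alpha library of that number. Of the 396 single-part models of the decile, 303, 318 and 289 were. The differences between library medians were 0.44, 0.38 and 0.45 for these single-part models.

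**Figure D4:**
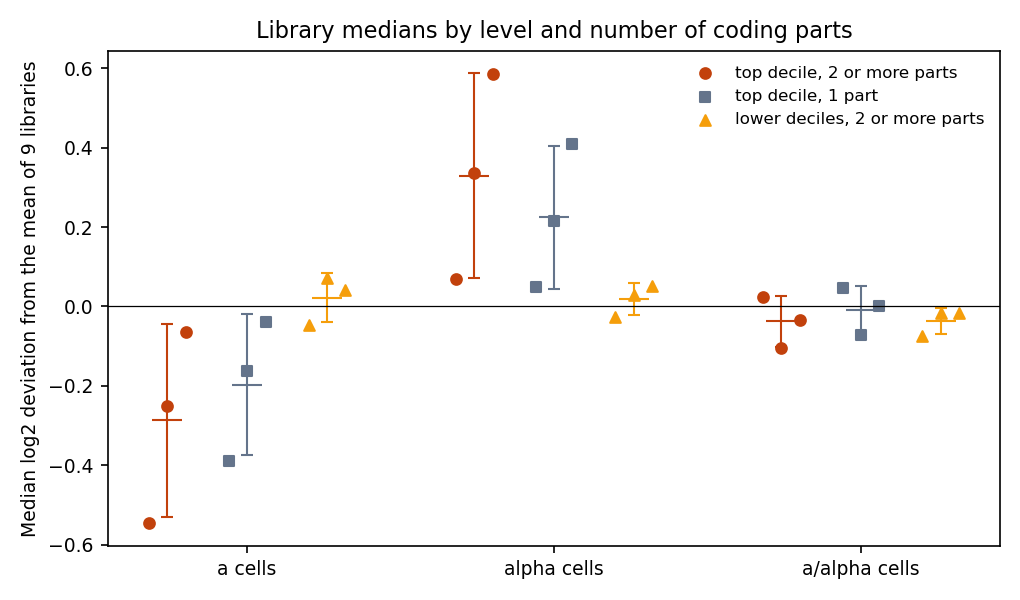
Median log2 deviation of a library from the mean of the 9 libraries (y axis) in a, alpha and a/alpha cells, for 119 members of the top level decile, 396 single-part models of that decile and the members of lower deciles; points are replicates 1, 2 and 3 and bars the mean ± SD (n = 3). Members of the top decile spread widest, with means of -0.29 in a cells and 0.33 in alpha cells.

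Against a/alpha cells, a smaller share of members passed than of all models, and whether the shares differ was not tested. Both comparisons use the same 3 a/alpha libraries, so their values are given side by side only. In a against a/alpha cells 60 members (10.2%) passed, 31 higher and 29 lower, where 12.9% of all models did, 7.32% higher and 5.61% lower. In alpha against a/alpha cells 41 members (6.95%) passed, 34 higher and 7 lower, where 10.3% of all models did, 6.55% higher and 3.71% lower. Single-part models passed in 13.1% and 10.3% of cases. The members' median log2 fold changes were 0.01 in a cells and 0.09 in alpha cells, against 0.02 and 0.01 over all models. Set against single-part models of the same level decile, members lay 0.003 higher in a cells and 0.07 higher in alpha cells. These distances were not tested. With upper-quartile scaling the splits were 32 higher and 19 lower in a cells, and 22 higher and 14 lower in alpha cells. DESeq2 called 92 members in alpha against a/alpha cells, where it called 17.0% of all models. Leaving out a replicate 2 or a replicate 3 turned the count of 60 into 20 or 34, and leaving out a/alpha replicate 1, 2 or 3 gave 36, 26 or 23. The count of 41 became 110 when a replicate 1 was left out, and 27 for a replicate 2. It became 105, 16 or 10 for alpha replicate 1, 2 or 3, and 7 or 11 for a/alpha replicate 2 or 3. The share of all models called with a library left out or with upper-quartile scaling is not given here. A shift particular to members can therefore not be read from these counts.

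In the authors' deposited tables, 57 members passed in a against a/alpha cells, 30 higher and 27 lower, and 42 in alpha against a/alpha cells, 31 higher and 11 lower. Of these members in the authors' deposited tables, 44 and 30 were also called in the same direction by edgeR. The authors' deposited tables called 13.4% and 10.8% of all models.

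Few members changed in both haploid types alike. Both tests passed in the same direction for 8 higher members, where 2.70% of all models were higher, and for 4 lower members, where 1.33% were lower. They passed in opposite directions for no member. At least 2-fold above a/alpha cells in both haploid types were 5 members, where 1.59% of all models were. The count was 3 without alpha replicate 2, alpha replicate 3 or a/alpha replicate 3, and 2 without a/alpha replicate 2. At least 2-fold lower in both was 1 member, where 0.536% of all models were.

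The member E:388024-389459, on the plus strand with a first part of 1146 bp, had the largest change. It had 32.9, 59.4 and 52.8 CPM in a cells and 329, 387 and 342 CPM in alpha cells, against 2.74, 14.3 and 13.4 CPM in a/alpha cells. The value of 2.74 CPM lies below the limit of 4.04 CPM that a count of 3 sets in a/alpha replicate 1. No 2 groups overlapped, and alpha cells were highest. It was higher by 3.86-fold in a cells (log2 1.95 ± 0.29 SE, adjusted p = 0.000726, quasi-likelihood test of edgeR, Benjamini-Hochberg adjusted) and by 28.1-fold in alpha cells (log2 4.81 ± 0.31, adjusted p = 5.25e-07). Its end overlaps a model on the opposite strand at E:389294-389977, which had 37.3, 66.2 and 46.7 CPM in a cells and 572, 701 and 690 CPM in alpha cells. That model had 6.86, 13.1 and 14.4 CPM in a/alpha cells, so the levels of both models of the pair moved alike, and each value is uncertain where they overlap.

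A pair of small members on chromosomes D and B shared a layout, with first parts of 41 and 40 bp, each before a gap of 100 bp. The member D:1135956-1136487 on the minus strand had 8.94, 13.4 and 14.5 CPM in a cells and 4.68, 5.84 and 7.12 CPM in alpha cells. In a/alpha cells it had 2.74, 0.374 and 1.83 CPM, of which the first value rests on 2 counts. It was higher by 3.40 ± 0.46 in a cells (log2 ± SE, adjusted p = 0.00035) and by 2.34 ± 0.48 in alpha cells (adjusted p = 0.00953; edgeR). The member B:356529-356886 on the plus strand had 7.59, 10.5 and 7.78 CPM in a cells and 5.73, 3.84 and 5.27 CPM in alpha cells. In a/alpha cells it had 0, 1.5 and 2.58 CPM. It was higher by log2 2.17 ± 0.36 in a cells (adjusted p = 0.00171) and 1.37 ± 0.38 in alpha cells (SE, adjusted p = 0.0378; edgeR). Both members lay near the limit of 4.04 CPM that a count of 3 sets in a/alpha replicate 1. Without a/alpha replicate 2, neither passed both tests at 2-fold. The member on chromosome B also failed to without a/alpha replicate 3 and without any single alpha library.

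The other 2 higher members lie on chromosome F. The member F:1177621-1195947 on the plus strand had 4 parts and a longest gap of 5508 bp. It had 26.6, 31.6 and 32.0 CPM in a cells and 35.5, 51.7 and 30.2 CPM in alpha cells, against 11.0, 9.92 and 13.2 CPM in a/alpha cells. It was higher by 1.39 ± 0.24 in a cells (log2 ± SE, adjusted p = 0.0019) and by 1.77 ± 0.24 in alpha cells (adjusted p = 0.000483; edgeR). This member and E:388024-389459 passed both tests at 2-fold under each of the 16 alternatives run. The member F:412911-413622 on the plus strand, with a gap of 16 bp, had 19.0, 31.6 and 27.6 CPM in a cells. It had 16.7, 23.3 and 36.0 CPM in alpha cells and 15.1, 10.9 and 13.6 CPM in a/alpha cells. Its lowest alpha library lay close above its highest a/alpha library, and it did not pass both tests at 2-fold under 10 of the 16 alternatives. The member that was lower in both, D:1227258-1231652 on the minus strand, had 46.6, 37.7 and 37.4 CPM in a cells and 47.5, 57.4 and 33.9 CPM in alpha cells. It had 76.9, 133 and 96.6 CPM in a/alpha cells, above all others. On the log2 scale it changed by -1.37 ± 0.23 in a cells (adjusted p = 0.00175) and -1.18 ± 0.23 in alpha cells (SE, adjusted p = 0.00696; edgeR). It did not pass both tests at 2-fold without a/alpha replicate 2 or without alpha replicate 3.

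**Figure D5:**
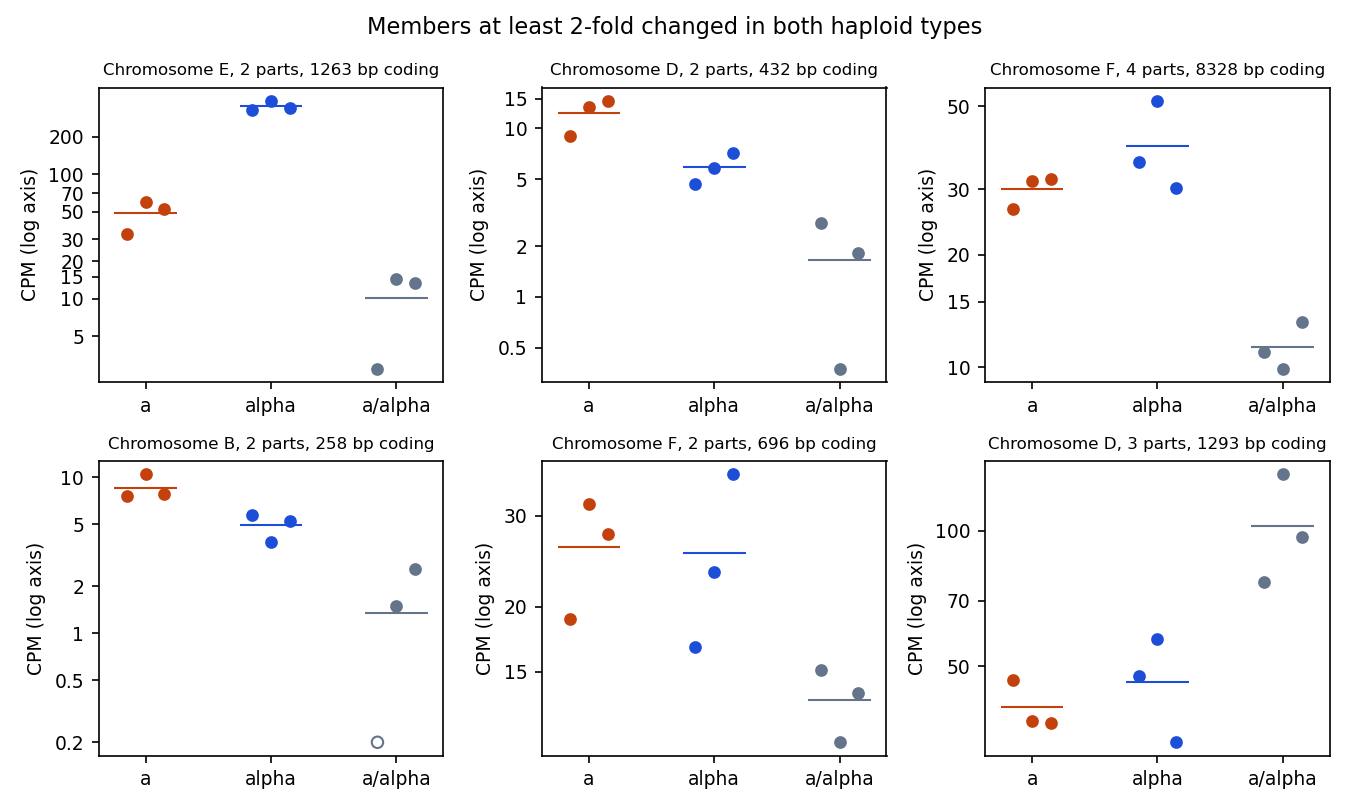
Level in each library (y axis, CPM, log axis) of the 6 members at least 2-fold changed in both haploid types, for a, alpha and a/alpha cells; points are replicates 1, 2 and 3, lines are means, and an open circle marks 0 counts, drawn at 0.2 CPM. In 5 panels the a/alpha libraries are lowest, and in the last they are highest.

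Some members stood apart in a cells. The member E:1255184-1258569 on the plus strand had 269, 203 and 202 CPM in a cells, against 92.0, 87.1 and 82.9 CPM in alpha cells. It had 90.6, 73.6 and 80.3 CPM in a/alpha cells, which overlapped alpha cells. Its log2 fold change was 1.36 ± 0.16 against alpha cells (SE, adjusted p = 0.000195) and 1.48 ± 0.17 against a/alpha cells (adjusted p = 6.54e-05; edgeR). The member A:602690-603287, with a first part of 8 bp, had 212, 222 and 252 CPM in a cells and 92.5, 91.9 and 104 CPM in alpha cells. It had 98.8, 85.9 and 88.5 CPM in a/alpha cells, so a cells alone stood above the rest. In the other direction, B:37558-38220 on the minus strand had 1.63, 4.23 and 2.46 CPM in a cells. It had 10.1, 11.5 and 11.1 CPM in alpha cells and 12.4, 11.0 and 9.56 CPM in a/alpha cells, which overlapped each other. It was lower in a than in alpha cells by a log2 fold change of -1.98 ± 0.29 (SE, adjusted p = 0.00093; edgeR). The member F:1109284-1109683, with a first part of 8 bp, had 53.8, 79.8 and 94.9 CPM in a cells. It had 145, 180 and 305 CPM in alpha cells and 176, 222 and 244 CPM in a/alpha cells, with a cells below both.

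Other members stood apart in alpha cells. The member H:608424-610884 on the minus strand had 34.8, 48.7 and 49.7 CPM in a cells and 89.0, 106 and 124 CPM in alpha cells. It had 52.2, 39.1 and 46.7 CPM in a/alpha cells, which overlapped a cells. Its log2 fold change was -1.25 ± 0.19 in a against alpha cells (SE, adjusted p = 0.00102) and 1.24 ± 0.20 in alpha against a/alpha cells (adjusted p = 0.00179; edgeR). The 3-part member D:759720-761419 had 520, 414 and 474 CPM in a cells and 326, 297 and 271 CPM in alpha cells. It had 679, 685 and 578 CPM in a/alpha cells, so the groups stood in the order alpha, a and a/alpha without overlap. It was lower in alpha than in a/alpha cells by a log2 fold change of -1.12 ± 0.16 (SE, adjusted p = 0.000666; edgeR), and its a against a/alpha value of -0.46 ± 0.15 did not pass (adjusted p = 0.0696). Libraries of a type varied for members about as much as for single-part models, with a median SD of log2 CPM of 0.225 in members and 0.241 in single-part models. In the top decile it was 0.261 and 0.256.

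Of the 15 members with the most parts, the longest gaps or the shortest gaps, 13 were tested. At least 1 test was passed by 4 of them (30.8%), near the 27.7% of all models. These 4 were H:994052-1003541 and the members F:1177621-1195947, F:412911-413622 and D:1227258-1231652 described above, of which 3 are among the 5 with the longest gaps. The member with the most parts, E:208750-216599, had 6, and its level was 3.59 CPM per kb. None of its 3 comparisons passed. The 5 members with 4 parts ranged widely in level, with F:561752-564021 at 3459 CPM per kb and F:1177621-1195947 at 3.22. The longest gap, 7267 bp in H:994052-1003541, holds other models. That member had 810, 807 and 918 CPM in a cells, 1060, 1266 and 1212 CPM in alpha cells and 946, 562 and 631 CPM in a/alpha cells. Its alpha libraries lay above all others, and alpha cells were higher than a/alpha cells by 0.74 ± 0.19 (log2 ± SE, adjusted p = 0.0322; edgeR). In all, 5 members held another model inside a gap. The shortest gap, 6 bp in G:1172424-1173617, lay in a member with 24.3, 22.0 and 24.9 CPM in a cells, 28.8, 26.8 and 27.9 CPM in alpha cells and 26.1, 25.4 and 26.2 CPM in a/alpha cells. No comparison of it passed.

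The 108 models with several parts outside the position limits had a lower median level, 17.1 CPM per kb. At the limit on chromosome C, the nearest member was C:1010598-1010979 at 418 CPM per kb, and the nearest model left out was C:997054-998358 at 8.57. At the limit of 30000 bp, the nearest member was G:1703587-1704417 at 71.3 CPM per kb, and the nearest model left out was A:29499-30819 at 23.3. The filter on low counts passed 590 members, and the 14 others held 0.00177% of the counts in members. Over the 3 comparisons, 154 members (26.1%) passed at least 1 test, where 27.7% of all models did.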

How the data were processed

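The authors deposited read counts per gene model, made per the file headers with featureCounts 2.0.1 over coding parts (CDS) with strand setting 1; alignment paths name fastp and STAR. The command lists 14 alignments, of which 5 are not analysed here. Per the labels' protocols, a directional kit gave single reads of 65 bp, and whether that strand setting matches the kit was not given in the sources used here. The length column deposited with the counts is the summed coding length in bp. The authors' deposited comparison tables hold a mean signal, log2 fold changes with errors, a test score and p-values; the submitters' processing notes name DESeq2.

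All 9 libraries' counts entered a fit of edgeR 4.0.16 under R 4.3.3 (TMM factors, filterByExpr, quasi-likelihood tests, Benjamini-Hochberg adjustment at 0.05), keeping 5042 models. The TMM factors ran from 0.809 to 1.16, with a biological coefficient of variation of 18.0%. Standard errors are approximate, taken from the fold change and the F statistic. Levels are the mean over cell types of TMM CPM per kb of coding length, and deciles were set on single-part models. The fit was tested on simulated counts.

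Members and lists were chosen with earlier results of these data known. Lists of ribosomal protein, spliceosome, cytoskeleton and mating-type genes matched 0 models, since no gene names were at hand, and were not used. Members named are the 10 of highest level, those 2-fold changed in both haploid types, those with extreme layouts, and the largest changes per direction among up to 10 called members without overlap of the 3 libraries. Where nothing says what the replicates share, p-values measure the spread between these libraries only. Deviations from group means correlated between a and alpha libraries of the same number by 0.75, 0.22 and 0.55, all above 0.1, so those numbers were taken to pair them, from the data and not from the labels. For a with a/alpha libraries they were 0.10, 0.01 and 0.13, and for alpha with a/alpha libraries -0.01, -0.03 and 0.16, which did not pair them. Alternatives were other size factors, no filter, a replicate block, DESeq2 1.42.0, fitting 2 groups by themselves, a threshold of 0.01, other length scalings and leaving out each library. Leaving out the first 1000000 bp of chromosome C from the fit, blocking a and alpha libraries alone, and all alternatives for the count of lower members in the top decile, the share of counts and the members changed in both types were added after seeing the data.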

Additional observations from a re-analysis of the deposited data

Results flagged for a closer look

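In the members that were higher in both haploid types, the size of the change differed between a and alpha cells in 2 cases by the direct test of a against alpha (quasi-likelihood test of edgeR, Benjamini-Hochberg adjusted). The member E:388024-389459 was lower in a than in alpha cells by a log2 fold change of -2.86 ± 0.27 (SE, adjusted p = 2.53e-05), with all 3 a libraries below all 3 alpha libraries. The member D:1135956-1136487 was higher in a than in alpha cells by 1.06 ± 0.34 (SE, adjusted p = 0.0494), with all 3 a libraries above all 3 alpha libraries. Groups of 3 libraries were not tested for a single library far from the others.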

How the results depend on the processing

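The counts of members called moved with the threshold, the libraries fitted and the model. The share of all models moved with the threshold and the model too. It is not given here for fits that left out a library. In a against a/alpha cells the count was 104 with a replicate block and 19 at an adjusted p of 0.01, and 20 to 81 when each library was left out. In alpha against a/alpha cells it was 92 with DESeq2, 80 in a fit of those groups alone, 145 with a replicate block, 10 at 0.01, and 7 to 110 leaving out a library. In a against alpha cells it was 69 in a fit of those groups alone, 35 at 0.01, 181 with a replicate block over all libraries, 264 with the block in a and alpha libraries alone, and 46 to 142 leaving out a library. With the replicate block over all libraries, 17.6%, 24.6% and 30.7% of members passed in these 3 comparisons, against 24.1%, 30.8% and 31.2% of all models. With the block in a and alpha libraries alone 45.0% of members passed, against 43.6% of all models. At 0.01 it was 3.22%, 1.69% and 5.93% of members, against 5.75%, 3.57% and 7.42% of all models. DESeq2 called 16.3% of members in alpha against a/alpha cells and 17.0% of all models. In fits of the compared groups alone, 13.7% of members and 18.4% of all models passed in alpha against a/alpha cells. For a against alpha cells these were 11.8% and 12.6%. The lower members of the top decile numbered 29, 17 and 92 in the fit of those groups alone, at 0.01 and with the block in a and alpha libraries alone, and 22 to 67 leaving out a library. Single-part models of that decile were not set beside these counts. Members 2-fold higher in both types numbered 8 with a replicate block and 2 to 7 leaving out a library. The cause of these shifts was not tested.

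The ratio of median levels was 1.21 per kb of span, 1.46 with gaps of 40 bp or more only, 1.23 at 400 bp or more, and 1.37 to 1.45 leaving out a library. The members' distance from single-part models of the same decile, leaving out a library, was -0.028 to 0.027 in a against a/alpha cells, 0.048 to 0.073 in alpha against a/alpha cells and -0.079 to -0.024 in a against alpha cells. Matched on level and coding length, the distance was 0.008, 0.070 and -0.089 in these comparisons. The share of counts stayed at 30.7 to 32.6% in a cells, 36.0 to 38.1% in alpha cells and 33.7 to 34.3% in a/alpha cells. Of the 80 called fold changes of named members, 46 stayed called in every alternative, and none reversed in 1280 alternative values. Depth in a/alpha replicate 1 limits members of low level.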
